A study of Danio rerio with 21 samples.

Results

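Hearts with a cryoinjury were compared with sham-operated hearts at 1 day post-injury (dpi) in adult zebrafish. The RNA came from nuclei pulled out of the heart by a tag meant for macrophages. The comparison takes 2 cryoinjury libraries (replicates 2 and 3) and 3 sham libraries (replicates 1, 2 and 3) by their labels, 5 of the 21 libraries in the series. It was made across 13020 genes that passed a filter on low counts, out of 31952 genes used. The cryoinjury group had a cooled probe applied to the exposed ventricle, which kills the tissue under it, and the sham group had the ventricle exposed without the probe. All fish of both groups were adult and of the line ox133, which carries a BAC transgene mpeg1:BirA-Citrine together with a transgene bactin:Avi-Cerulean-Rangap. In this line the regulatory region of mpeg1, a gene of macrophages, drives the biotin ligase BirA, and bactin drives an Avi-tagged nuclear envelope protein in all cells. Nuclei of cells that make BirA are biotinylated and were pulled out of the heart with streptavidin beads. Per the study's methods a sample came from a single heart, so the spread between libraries holds the spread between fish. The other libraries of the series are from resection at 1 dpi and from cryoinjury, resection or sham at 5 and 14 dpi, and are used below only to place the genes found at 1 dpi.

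Macrophages take up dead cells and debris after injury, and they release cytokines, growth factors and matrix enzymes that direct the repair of the tissue. A cryoinjured zebrafish heart first passes through inflammation and a transient scar and later regrows its muscle. At 1 dpi the wound is in its inflammatory stage, when neutrophils and newly arrived macrophages gather at dead tissue. Nuclear RNA reports mainly on genes that are being transcribed, and any nucleus or free RNA that sticks to the beads is counted as well.

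Total counts lay between 28199932 and 61141100 in the 5 libraries, and 12608 to 17352 genes had at least 1 count. The cryoinjury libraries had 14322 and 17352 genes detected, against 12608 to 14075 in sham. The replicates of one group differed strongly. Of the genes with at least 100 counts in one library of a pair, 8.88% had 0 counts in the other cryoinjury library, against 12.2% to 16.2% in the 3 pairs of shams. The most abundant gene, without a symbol here, took 9.86% and 21.6% of the counts after cryoinjury, against 6.58% to 13.9% in sham. The common biological coefficient of variation was 1.42. Levels below are CPM, which are counts scaled to a common library total, adjusted by the trimmed mean of M-values (TMM). An exact permutation test on a single gene cannot pass 0.05 here, since 5 libraries can be split into 2 and 3 in only 10 ways, so p-values come from edgeR's quasi-likelihood test across all genes with Benjamini-Hochberg adjustment.

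After cryoinjury 18 genes were higher and 1 gene was lower than in sham at an adjusted p-value under 0.05. These are 0.138% and 0.00768% of the 13020 genes tested, or 0.146% in both directions. Among the higher genes, 8 belong to a list of keratins and other epithelial genes, 6 to a list of fast skeletal muscle genes, and 1, hbegfb, to a list of resolution and growth factor genes. The other 3 were tnks1bp1, CR450842.1 and zgc:174164. The lower gene was NNT (2 of 3). At an unadjusted p-value under 0.05 there were 534 higher and 339 lower genes, 6.71% of those tested. In 1802 genes both cryoinjury libraries lay above every sham (13.8% of those tested), and in 1088 genes both lay below every sham (8.36%). The median log2 fold change of all genes tested was -0.15. The DESeq2 Wald test on the same libraries called 565 of 14275 genes higher and 375 lower, and 18 of the 19 genes were among its calls. It tested its own set of genes, so its counts for the lists below have denominators of their own. They stand beside its 565 higher and 375 lower calls among 14275 genes. In edgeR, 4.1% of all genes tested were higher and 2.6% lower at an unadjusted p-value under 0.05.

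**Figure D1:**
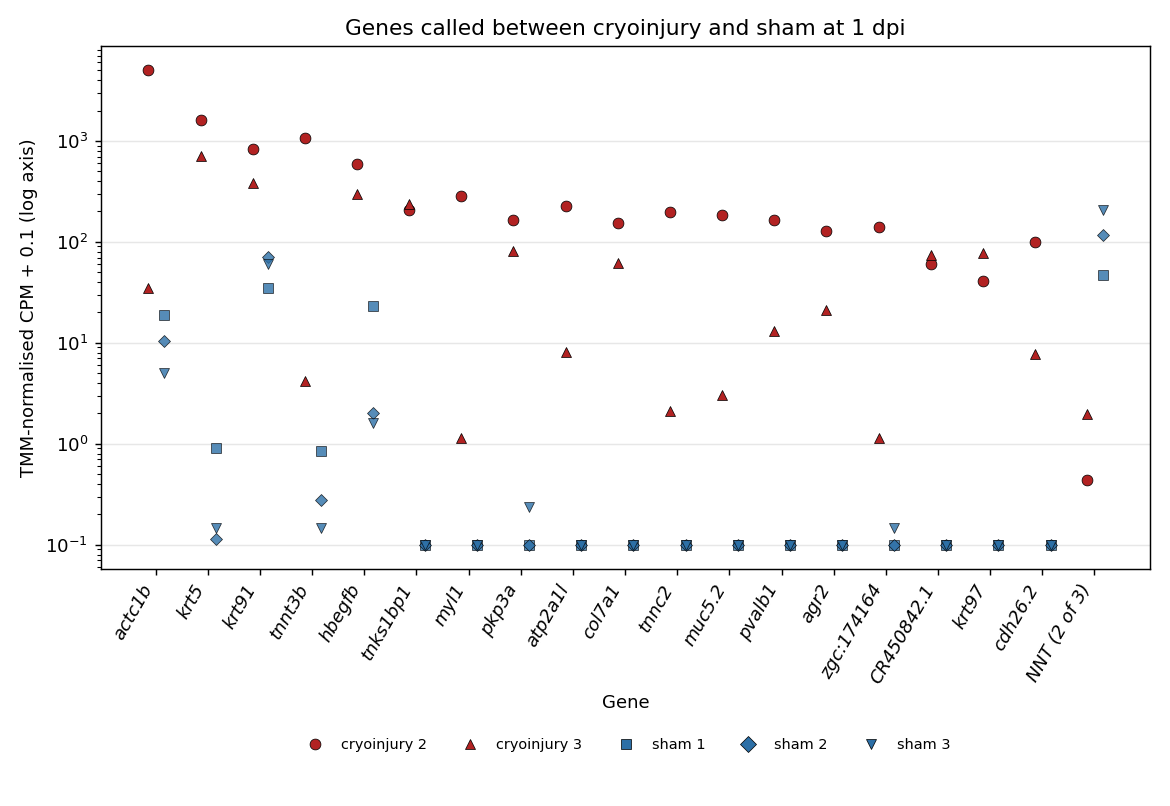
TMM-normalised CPM + 0.1 on a log axis for the 19 genes called between cryoinjury and sham at 1 dpi, 1 point per library, with cryoinjury (red) left of sham (blue). In 11 of the 18 higher genes every sham had 0 counts, and the red points of the muscle genes lie far apart, with cryoinjury 2 above cryoinjury 3.

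Many of these genes were at the limit of detection in sham. A library with 3 counts or fewer was taken to be at its floor, which is 0.0872 CPM as the mean of the 3 shams. In 13 of the 18 higher genes every sham was at the floor, and in 11 every sham had 0 counts. A fold change against such a group is a lower bound, computed from the mean of the cryoinjury libraries and covering counting error only. Over the whole table, 392 genes had at least 10 counts in both cryoinjury libraries and at most 3 in every sham, of which 362 were tested and 13 called. The reverse pattern was found in 60 genes, all of them tested and none of them called by edgeR, with 41 at an unadjusted p-value under 0.05. The numbers 392 and 60 are not on equal terms. The first pattern asks for detection in 2 libraries and the second in 3, and more genes were detected after cryoinjury.

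Keratins build the intermediate filaments of epithelial cells, and plakophilins, cadherins and claudins join such cells to each other. Of 57 tested genes in this list, edgeR called 8 higher and none lower. DESeq2 called 35 of 65 higher and 1 lower. A further look at edgeR's unadjusted p-values under 0.05 found 35 higher and 0 lower, against 4.1% and 2.6% of all genes tested. Both cryoinjury libraries lay above every sham in 39 of the 57 genes, against 13.8% of all genes tested. The median log2 fold change was 7.17, or 5.00 when genes at the floor are set to their bound, beside -0.15 for all genes. Such a bound applied to 24 of the 57 genes, against 769 of all 13020. A gene with no count in any sham passed the filter only through the cryoinjury libraries. Its place above every sham was thus fixed beforehand, here and in the other lists. krt5, a keratin of basal epidermal cells, had 1609 and 707 CPM after cryoinjury, against 0.813, 0.0129 and 0.0453 CPM in sham. This was the most abundant of the called epithelial genes in both cryoinjury libraries, at a fitted log2 difference of 11.96 (SE 1.36, adjusted p = 0.000426). pkp3a, for a plakophilin of desmosomes, had 165 and 81.7 CPM after cryoinjury, against 0, 0 and 0.136 CPM in sham, so it was at least 1416-fold higher (adjusted p = 0.00677). krt97 had 40.9 and 78.3 CPM after cryoinjury and no count in any sham, and it was at least 684-fold higher (adjusted p = 0.00965). These 3 genes were at similar levels in both cryoinjury libraries, within a factor of 2.28.

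col7a1 encodes type VII collagen, the protein of the anchoring fibrils that hold epithelium to the tissue beneath it. It had 153 and 62.0 CPM after cryoinjury, or 4966 and 2654 counts, and 0 counts in every sham. It was at least 1232-fold higher (adjusted p = 0.00166). krt91 was the only one of the 8 that was well detected in sham, with 827 and 385 CPM after cryoinjury, against 34.8, 71.0 and 60.6 CPM in sham. Its log2 fold change was 3.45 (SE 0.67, adjusted p = 0.0490). It passed in 6 of 12 alternative settings, and the adjusted p-value was 0.111 without sham 1, 0.0638 without sham 2 and 0.114 without sham 3. The other 3 epithelial genes were much higher in cryoinjury 2 than in cryoinjury 3. muc5.2, a gel-forming mucin, had 186 and 2.94 CPM, agr2, a protein needed for mucin folding in mammals, had 129 and 21.05 CPM, and cdh26.2, a cadherin, had 100.05 and 7.66 CPM, while no sham had a count of any of them. Without cryoinjury 2 these 3 genes and krt91 were no longer called, and krt5, col7a1, pkp3a and krt97 were. cdh26.2 was also not called without sham 2 (adjusted p = 0.064) or sham 3 (adjusted p = 0.105), and muc5.2 was not called without sham 3 (adjusted p = 0.0727). The part that epithelial cells, or their free RNA, have in these values was not tested.

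Several epithelial genes just missed the threshold. cldnb, a claudin of tight junctions, had 56.4 and 22.4 CPM after cryoinjury and 0 in every sham (adjusted p = 0.0599). Other keratins were abundant in both groups. krt8 had 819 and 812 CPM after cryoinjury, against 1106, 1217 and 774 CPM in sham, and krt4 had 1686 and 800.2 CPM, against 341, 1302 and 499 CPM in sham, so for both the groups overlapped. krt8 and krt4 were chosen for description after their values were seen. The keratins are a family of similar genes, and reads that fit more than one member may have been lost or shared between them.

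Among genes outside the lists, tnks1bp1, which encodes a partner protein of tankyrase in mammals, had the smallest p-value of the whole comparison (adjusted p = 9.43e-05). It had 209 and 237 CPM after cryoinjury, or 6777 and 10128 counts, and 0 counts in the 3 shams, so it was at least 2553-fold higher. It was called under each of the 11 alternatives that gave it a value. CR450842.1 had 60.04 and 74.7 CPM after cryoinjury and no count in sham (at least 773-fold higher, adjusted p = 0.00689). zgc:174164 had 141 and 1.05 CPM, against 0, 0 and 0.0453 CPM in sham (adjusted p = 0.0401), and it was not called without cryoinjury 2 or without any single sham (adjusted p = 0.0797 to 0.138 without a sham).

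Fast skeletal muscle uses its own versions of troponin, myosin light chain, calcium pump and parvalbumin, which the adult heart ventricle is not known for. Of 45 tested genes of this list edgeR called 6 higher and none lower. DESeq2 called 34 of 62 higher and 2 lower. By edgeR's unadjusted p-values under 0.05, 23 were higher and 2 lower, against 4.1% and 2.6% of all genes tested. The median log2 fold change was 5.21, or 4.50 with genes at the floor set to their bound. The high values of the called genes came from cryoinjury 2. Over the list, cryoinjury 2 was above cryoinjury 3 in 27 of the 45 tested genes. Others were higher in cryoinjury 3, such as pygma with 1.48 CPM in cryoinjury 2 and 39.2 CPM in cryoinjury 3. actc1b, an actin of fish muscle, had 5073 and 34.7 CPM after cryoinjury, against 18.9, 10.4 and 4.98 CPM in sham (log2 fold change 7.80, SE 1.28, adjusted p = 0.00913). tnnt3b, a fast troponin T, had 1059 and 4.13 CPM after cryoinjury, against 0.755, 0.180 and 0.0453 CPM in sham (adjusted p = 0.00689). In all 6 genes both cryoinjury libraries lay above every sham, but cryoinjury 2 was 12.7 to 270.2 times as high as cryoinjury 3.

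The 4 other called muscle genes had no count in any sham. They were atp2a1l, for a calcium pump of the sarcoplasmic reticulum, with 225 and 8.11 CPM after cryoinjury, and pvalb1, for the calcium buffer parvalbumin, with 164 and 12.97 CPM. myl1, a myosin light chain, had 284 and 1.05 CPM, and tnnc2, a fast troponin C, had 197 and 2.03 CPM. The bounds on their fold changes lay between 1017 and 1635 for the mean of both libraries, but cryoinjury 3 alone was only 12.06 to 149 times the floor of the shams. Without cryoinjury 2 no gene of the list was called among 48 tested, and 7 were higher at an unadjusted p-value under 0.05. Without cryoinjury 3, 23 of 65 were called higher. Without sham 3, tnnt3b, myl1, tnnc2 and actc1b were not called, at adjusted p-values of 0.105, 0.0826, 0.0781 and 0.151. For the epithelial list the corresponding counts were 4 of 63 genes without cryoinjury 2 and 11 of 62 without cryoinjury 3. actc1b is close in sequence to actc1a, a cardiac actin that was abundant in all libraries, and reads could be shared between such copies. The part that skeletal muscle tissue or its RNA has in these values was not tested.

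**Figure D2:**
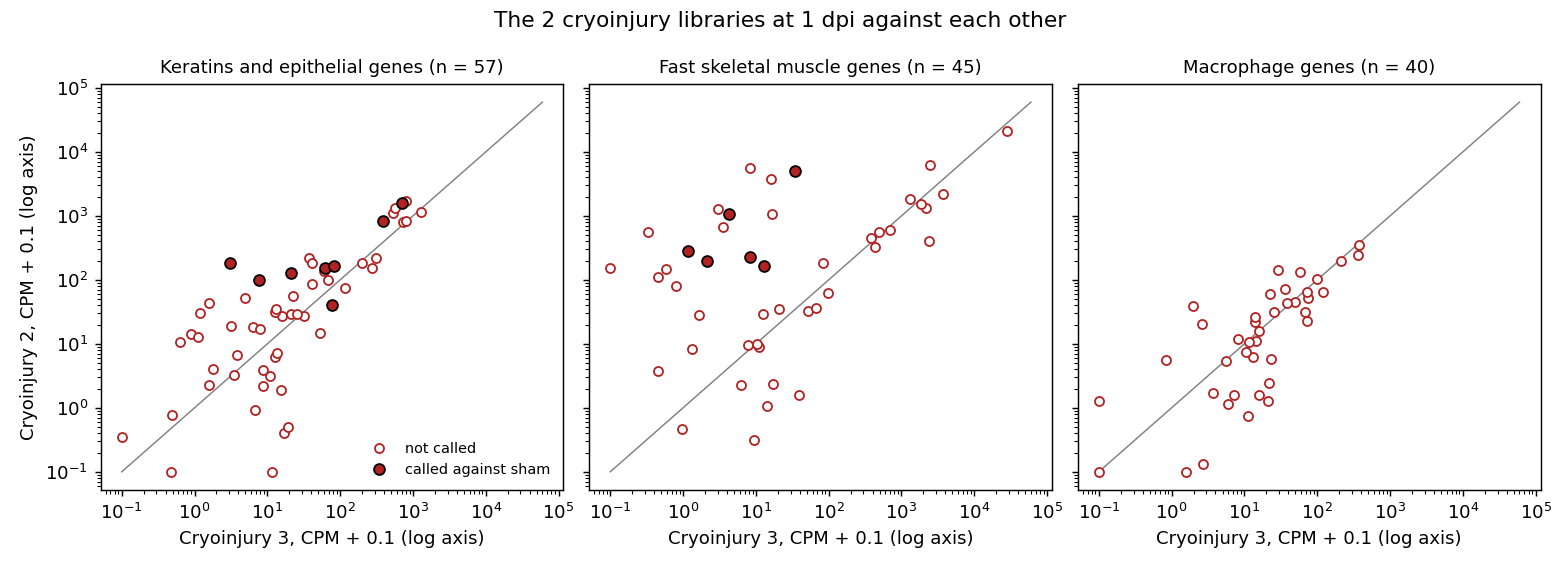
CPM + 0.1 in cryoinjury 2 (vertical, log axis) against cryoinjury 3 (horizontal, log axis) for the tested members of 3 lists, with the line of equal levels in grey and genes called against sham filled in red. The called muscle genes all lie far above the line, at 12.7 to 270.2 times, whereas 7 of the 8 called epithelial genes lie above it and krt97 lies below it.

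hbegfb encodes heparin-binding EGF-like growth factor, which activates EGF receptors on neighbouring cells. It had 592 and 295 CPM after cryoinjury, against 23.0, 1.94 and 1.49 CPM in sham. The mean was 444 ± 210.2 CPM over the 2 cryoinjury hearts, against 8.80 ± 12.3 CPM over the 3 shams (both SD). The fitted log2 difference was 5.65 (SE 1.06, adjusted p = 0.0382). Both cryoinjury libraries lay above every sham, and the call was kept in 8 of 12 alternatives. It was lost without sham 2 (adjusted p = 0.064) and without sham 3 (adjusted p = 0.138). hbegfb was the only one of 51 tested resolution and growth factor genes to be called by edgeR. DESeq2 called 12 of 56 higher and 2 lower. In edgeR 9 genes of this list were higher and 3 lower at an unadjusted p-value under 0.05. Of all genes tested, 4.1% and 2.6% were. The median log2 fold change of the list was 0.29. il10ra, a receptor chain for interleukin 10, had 14 and 61 counts after cryoinjury, against 0, 0 and 2 in the shams (adjusted p = 0.865).

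None of 43 tested inflammatory mediators and none of 21 tested genes of the IL-6 cytokine family was called by edgeR. Unadjusted p-values were under 0.05 for 10 higher and 1 lower mediators, and 6 higher and 0 lower genes of the IL-6 family. The shares over all genes tested were 4.1% higher and 2.6% lower. DESeq2 called 13 of 54 mediators higher and 2 lower, and 6 of 22 genes of the IL-6 family higher and 0 lower. Both lists hold il11b and il11a, which encode interleukin 11, a cytokine of the IL-6 family. il11b had 43.6 and 36.3 CPM after cryoinjury, or 1417 and 1552 counts, and 0 counts in every sham. It was just outside the threshold (adjusted p = 0.0542). il11a had 9.17 and 3.01 CPM after cryoinjury and 0 in sham (adjusted p = 0.571). crlf1a, for a soluble receptor-like cytokine partner, had 18.003 and 47.9 CPM after cryoinjury, against 0.174, 0 and 0.136 CPM in sham (adjusted p = 0.386). lifrb, for a receptor of leukaemia inhibitory factor, had 79.6 and 13.5 CPM, against 2.61, 0.0514 and 0.317 CPM in sham (adjusted p = 0.571). For all 4 genes the cryoinjury libraries lay above every sham.

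Among the other mediators cxcl19, a chemokine, had 23.4 and 9.70 CPM after cryoinjury and 0 in every sham (adjusted p = 0.406). tnfrsf9a, a receptor of the TNF family, had 116 and 32.1 CPM after cryoinjury, against 6.48, 0.0257 and 0.634 CPM in sham (adjusted p = 0.571). ccl25b, another chemokine, pointed the other way, with 4.46 and 2.06 CPM after cryoinjury, against 1.71, 219 and 27.1 CPM in sham. Its groups overlapped through sham 1. nos2a, an inducible nitric oxide synthase, had 146 and 0 counts after cryoinjury and 0 counts in all shams, so it was detected in 1 of 2 cryoinjury libraries and did not pass the filter.

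The labelled cell type was checked against its markers. Of 55 macrophage genes in the table, 39 and 40 had more than 3 counts in the cryoinjury libraries, against 30 to 35 in sham. Their summed counts were 0.215% and 0.178% of all counts after cryoinjury, against 0.0244%, 0.0505% and 0.0411% in sham. MPEG1 (ENSDARG00000055290), the gene whose regulatory region drives the tag, had 2.34 and 21.7 CPM after cryoinjury, against 2.09, 2.58 and 1.45 CPM in sham. The receptor genes csf1ra and csf1rb were at 3.64 CPM or less after cryoinjury and at 0.321 to 15.7 CPM in sham. mpeg1.2, a further MPEG1 gene (ENSDARG00000078569) and tyrobp had 0 counts in all 5 libraries. Cardiomyocyte genes, in contrast, took 9.36% and 9.75% of the counts after cryoinjury, against 16.7%, 13.5% and 14.8% in sham. In each of the 5 libraries their share was thus far above that of the macrophage genes. On the TMM scale the summed cardiomyocyte genes were at 81232 and 106047 CPM after cryoinjury. In sham they were at 137626, 106249.5 and 247822 CPM, so cryoinjury 3 and sham 2 were nearly equal. How much of the RNA came from cells other than macrophages was not tested. In such bulk samples more cells of a type and more RNA per cell cannot be told apart.

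**Figure D3:**
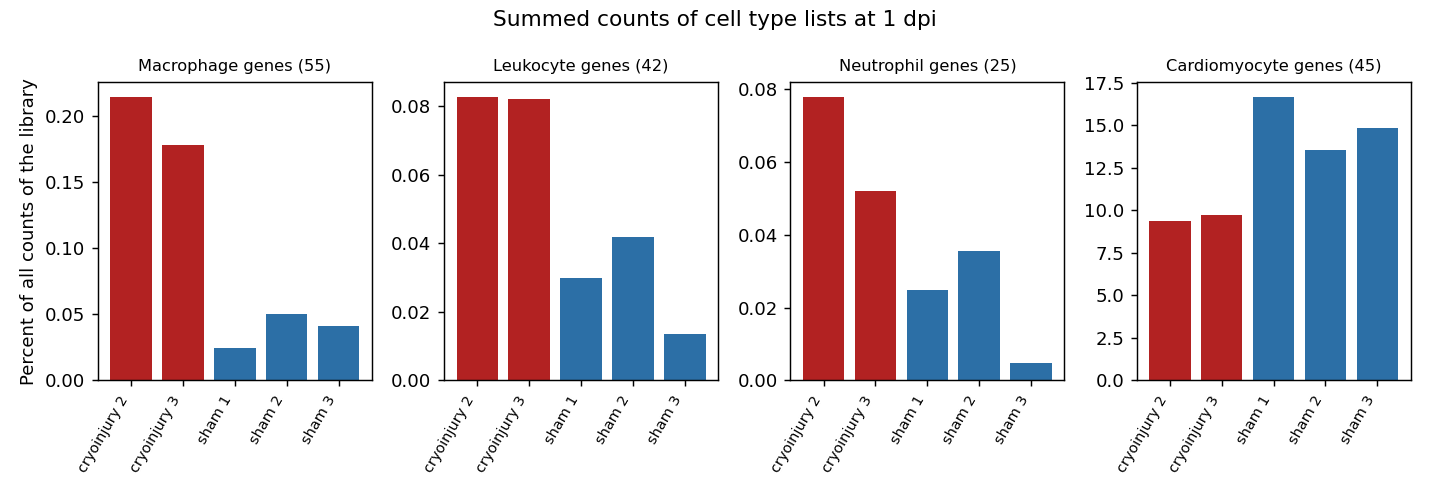
Summed counts of 4 cell type lists as a percentage of all counts of each library at 1 dpi, 1 bar per library, with the number of genes of each list in the table in its title and a separate vertical axis for each list. Macrophage, leukocyte and neutrophil genes had higher shares in both cryoinjury libraries than in every sham. Cardiomyocyte genes, with 9.36% and 9.75% of counts after cryoinjury, had lower shares. Their TMM-adjusted sums were nearly equal in cryoinjury 3 and sham 2.

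None of the 40 tested macrophage genes, 37 leukocyte genes or 17 neutrophil genes was called by edgeR. DESeq2 tested 40, 38 and 16 genes of these lists and called 5, 10 and 3 higher and 1, 0 and 1 lower. In edgeR the numbers at an unadjusted p-value under 0.05 were 11, 10 and 6 higher and 1, 0 and 0 lower. The shares over all genes tested were 4.1% higher and 2.6% lower. Both cryoinjury libraries lay above every sham in 22 macrophage, 20 leukocyte and 8 neutrophil genes, against 13.8% of all genes tested. The medians of the log2 fold change were 1.71, 2.29 and 2.14. slc7a7, an amino acid transporter of macrophages, had 133 and 58.8 CPM after cryoinjury, against 0, 0.0386 and 0.905 CPM in sham (adjusted p = 0.0925). LGMN, for the lysosomal protease legumain, had 354 and 373 CPM after cryoinjury, against 20.6, 52.6 and 48.3 CPM in sham (log2 fold change 3.16, SE 0.71, adjusted p = 0.124). CTSB, for the lysosomal protease cathepsin B, had 196 and 210.2 CPM after cryoinjury, against 34.3, 43.8 and 8.56 CPM in sham (adjusted p = 0.463). LGMN and CTSB were nearly equal in the 2 cryoinjury libraries and apart from every sham. spp1, for the secreted protein osteopontin, had 38.3 and 1.89 CPM after cryoinjury and 0 in sham (adjusted p = 0.382). MRC1, a mannose receptor gene also expressed by endothelium, was at 0 after cryoinjury, against 0.465, 1.61 and 0.860 CPM in sham (adjusted p = 0.735).

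The leukocyte genes with the smallest p-values were cd44a, csf2rb, rgs2 and ticam1, at adjusted p-values of 0.571 each. cd44a, an adhesion receptor for hyaluronan, had 14.7 and 8.41 CPM after cryoinjury and 0 in every sham. rgs2, a regulator of G protein signalling, had 4.25 and 54.4 CPM after cryoinjury, against 0.523, 0.0900 and 0.0453 CPM in sham. mmp9, a gelatinase that neutrophils and macrophages release, had 34.4 and 6.28 CPM after cryoinjury, or 1119 and 269 counts, and 0 counts in all shams (adjusted p = 0.382). Others of the neutrophil list were cfl1l, with 135 and 93.6 CPM after cryoinjury, against 0.203, 13.3 and 0.0453 CPM in sham, and adam8a, a membrane protease, with 84.4 and 54.5 CPM, against 4.71, 6.62 and 0.0905 CPM in sham. Their cryoinjury values lay above every sham, without passing the test (adjusted p = 0.571 each). scpp8 and npsn, of the same list, had 10.4 and 24.6 CPM and 6.31 and 7.34 CPM after cryoinjury. Each sham had 3 counts or fewer of either gene (adjusted p = 0.571 and 0.721). The defining neutrophil markers mpx and lyz were at 0.327 CPM or less in every library. They had 7 and 12 counts (mpx) and 5 and 14 counts (lyz) after cryoinjury, and 0 in every sham.

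Cardiomyocyte genes were not called, in either direction, among 41 tested. At an unadjusted p-value under 0.05, 2 were higher (4.88%) and 4 lower (9.76%), against 4.1% and 2.6% of all genes tested. Both cryoinjury libraries lay below every sham in 9 (22.0%), against 8.36% of all genes tested. DESeq2 called 1 of 42 higher and 1 lower. nppb, a natriuretic peptide that stressed heart muscle makes, had 1158 and 2047 CPM after cryoinjury, against 505, 389 and 402 CPM in sham (log2 fold change 1.89, SE 0.56, adjusted p = 0.461). actc1a, the cardiac actin, had 7352 and 5989 CPM after cryoinjury, against 7260, 17907 and 48569 CPM in sham, and the groups overlapped. lmod2a, for a leiomodin of muscle actin filaments, had 0 and 0.187 CPM after cryoinjury, against 17.9, 61.3 and 42.4 CPM in sham (adjusted p = 0.261). A further leiomodin gene, LMOD2 (ENSDARG00000045864), was more abundant and its groups overlapped. It had 472 and 1021 CPM after cryoinjury, against 665, 246 and 765 CPM in sham. tpm1, a tropomyosin, followed the skeletal muscle genes, with 1157 and 4.44 CPM after cryoinjury, against 9.38, 50.7 and 3.12 CPM in sham. Without cryoinjury 2 its log2 fold change turned to -2.24.

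**Figure D4:**
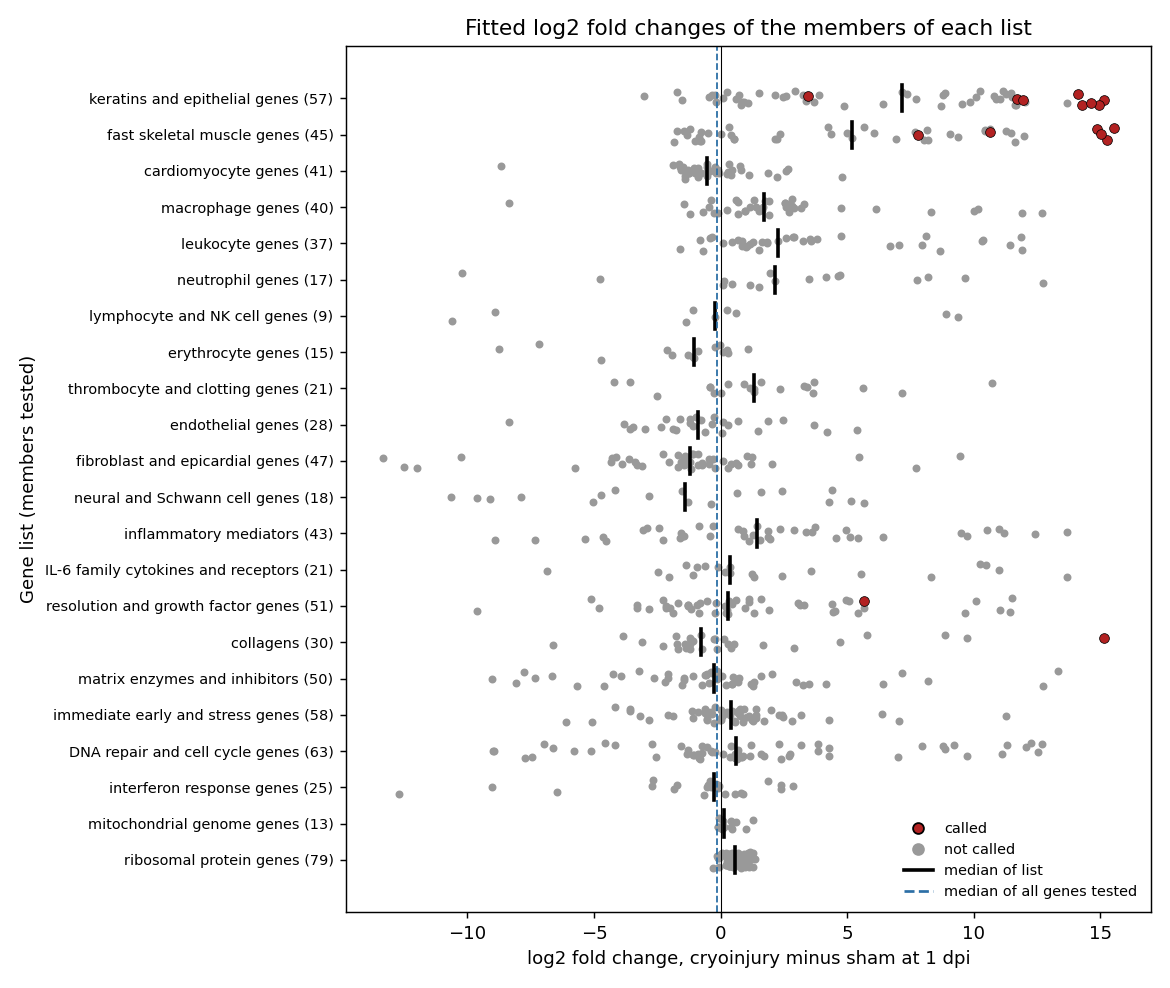
Fitted log2 fold changes, cryoinjury minus sham at 1 dpi, of the tested members of 22 lists, 1 point per gene, with called genes in red, the median of each list as a black bar and the median of all genes tested (-0.15) as a dashed line. The medians of the epithelial list (7.17) and the fast skeletal muscle list (5.21) lie furthest to the right, and red points occur in 4 lists, with col7a1 in both the epithelial list and the collagens.

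NNT (2 of 3), which is named for the mitochondrial enzyme that makes NADPH from NADH, was the single gene called lower. It had 0.339 and 1.89 CPM after cryoinjury, against 46.9, 117 and 207 CPM in sham. The mean was 1.12 ± 1.099 CPM over the 2 cryoinjury hearts, against 124 ± 80.5 CPM over the 3 shams (both SD). The fitted log2 difference was -6.79 (SE 1.32, adjusted p = 0.0490). The call was kept in 7 of 12 alternatives. Of the libraries left out in turn, it was lost without cryoinjury 2 (adjusted p = 0.649), sham 2 (adjusted p = 0.064) or sham 3 (adjusted p = 0.259). Next to it stood ppp1r3aa, for a subunit that targets a phosphatase to glycogen, with 0 and 1 counts after cryoinjury, against 924, 6180 and 640 in the shams (at least 555-fold lower, adjusted p = 0.0512). nudt2, for a hydrolase of dinucleoside polyphosphates, had 0 CPM in both cryoinjury libraries, against 54.8, 17.2 and 21.3 CPM in sham (adjusted p = 0.112). trim55a, for a protein of the muscle sarcomere, had 0 and 0.257 CPM after cryoinjury, against 29.1, 36.0 and 90.0 CPM in sham (adjusted p = 0.185). gcdhb, for a mitochondrial dehydrogenase of lysine breakdown, had 0 and 0.0467 CPM after cryoinjury, against 18.7, 15.4 and 63.0 CPM in sham (adjusted p = 0.240). Of these only NNT (2 of 3) passed the test.

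The other genes of this kind without overlap were si:ch211-67f24.7, si:dkey-21h14.9, zgc:65811 and cxcl12a. The first had 0 and 0.0234 CPM after cryoinjury, against 22.2, 13.1 and 84.7 CPM in sham (adjusted p = 0.0998). si:dkey-21h14.9 and zgc:65811 had 0 CPM in both cryoinjury libraries, against 2.41 to 52.3 CPM in sham. Their adjusted p-values were 0.195 and 0.261. cxcl12a, a chemokine that guides cells and is made by stromal cells, had 0.585 and 3.504 CPM after cryoinjury, against 10.55, 225 and 99.4 CPM in sham (adjusted p = 0.241).

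DESeq2 called 4 of 45 fibroblast and epicardial genes higher and 2 lower. Of the 47 that edgeR tested none was called, while 3 were higher and 6 lower at an unadjusted p-value under 0.05. These are 6.38% and 12.8%, against 4.1% and 2.6% of all genes tested. Their median log2 fold change was -1.22, and both cryoinjury libraries lay below every sham in 13 genes, beside 8.36% of all genes. abi3bpb, an extracellular matrix protein gene, had 485 and 11.7 CPM after cryoinjury, against 9.47, 5.71 and 1.81 CPM in sham (adjusted p = 0.108). dpt, for dermatopontin of the matrix, was at 0 in both cryoinjury libraries, against 0, 75.4 and 17.9 CPM in sham (adjusted p = 0.382). serpinf1 was likewise at 0 after cryoinjury and had 0.0291, 51.1 and 0.453 CPM in sham, so its difference rests on sham 2. Among 30 collagens tested by edgeR col7a1 was its only call, with 3 higher (10%) and 2 lower (6.67%) at an unadjusted p-value under 0.05. Their median log2 fold change was -0.76. DESeq2 called 4 of 33 collagens higher and 1 lower. The fitted differences of the type I collagen genes pointed down without passing the edgeR test. col1a1a had 147 and 88.9 CPM after cryoinjury, against 209, 647 and 265 CPM in sham (adjusted p = 0.685). COL1A2 was also below every sham, with 180 and 166 CPM, against 286, 601 and 269 CPM. For COL1A1 (ENSDARG00000035809) the groups overlapped, with 258 and 138 CPM, against 250, 925 and 206 CPM in sham. These genes were chosen for description after their values were seen.

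Of 50 tested matrix enzymes and inhibitors none was called by edgeR. At an unadjusted p-value under 0.05, 4 were higher (8%) and 3 lower (6%), against 4.1% and 2.6% of all genes tested. DESeq2 called 5 of 52 higher and 4 lower. chst11, for an enzyme that adds sulphate to chondroitin, had 48.0 and 12.9 CPM after cryoinjury and 0 in every sham (adjusted p = 0.137). hapln1a, a link protein of hyaluronan matrix, had 0.585 and 0.187 CPM after cryoinjury, against 16.2, 96.5 and 3.26 CPM in sham (adjusted p = 0.533). None of 18 tested neural and Schwann cell genes was called by edgeR, with 0 higher and 5 lower (27.8%) at an unadjusted p-value under 0.05. DESeq2 called 3 of 23 higher and 6 lower. mpz, the main protein of peripheral myelin, had 0 and 0.0934 CPM after cryoinjury, against 4.79, 80.4 and 0 CPM in sham, so sham 3 was as low as the cryoinjury libraries. pmp22a, another myelin gene, had 0.492 and 3.74 CPM after cryoinjury, against 41.3, 145 and 25.2 CPM in sham (adjusted p = 0.412), without overlap. fgf14 and nrxn1a were at 0.123 CPM or less after cryoinjury, and sham 1 was as low, at 0.0291 and 0 CPM.

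None of 28 tested endothelial genes was called by edgeR, and DESeq2 called 0 higher and 1 lower. At an unadjusted p-value under 0.05, 2 were higher and 2 lower (7.14% each), against 4.1% and 2.6% of all genes tested. SOX7, a transcription factor of endothelium, had 79.0 and 34.5 CPM after cryoinjury, against 6.22, 3.19 and 3.803 CPM in sham (adjusted p = 0.571), and tek, the angiopoietin receptor, had 1.23 and 6.59 CPM, against 46.4, 8.04 and 73.1 CPM in sham (adjusted p = 0.728). Of 21 thrombocyte and clotting genes 2 were higher (9.52%) and 0 lower at an unadjusted p-value under 0.05, and none was called by edgeR. DESeq2 called 2 of 22 higher. f13a1b, for a subunit of clotting factor XIII that macrophages also make, had 252 and 69.0 CPM after cryoinjury, against 12.6, 22.5 and 3.21 CPM in sham (log2 fold change 3.65, SE 1.00, adjusted p = 0.382). None of 15 erythrocyte genes was called by edgeR, none had an unadjusted p-value under 0.05, and DESeq2 called 1 lower. Of 9 tested lymphocyte and NK cell genes 2 were higher and 2 lower (22.2% each) at an unadjusted p-value under 0.05, and edgeR called none. DESeq2 called 2 of 10 higher and 3 lower. The 2 higher were SH2D1B and prf1.5. SH2D1B had 2.34 and 1.66 CPM after cryoinjury and 0 in every sham (adjusted p = 0.571). prf1.5 had 7.72 and 6.80 CPM, against 0, 0 and 0.0453 CPM in sham (adjusted p = 0.621). Among the lower, sell, for the homing receptor L-selectin, had 0 and 0.0467 CPM after cryoinjury, against 7.495, 31.997 and 0.0905 CPM in sham (adjusted p = 0.619). Its sham 3 value is 2 counts, under the floor.

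Genes of DNA repair and the cell cycle were not called by edgeR among 63 tested. Of these, 12 were higher and 1 lower at an unadjusted p-value under 0.05. DESeq2 called 16 of 66 higher and 5 lower. msh3, of mismatch repair, had 5.60 and 33.9 CPM after cryoinjury and 0 in every sham (adjusted p = 0.382), and tipin, which steadies replication forks, had 30.3 and 12.8 CPM, against 0.0291, 0.0900 and 0 CPM in sham (adjusted p = 0.507). Of 58 immediate early and stress genes 5 were higher (8.62%) and 1 lower (1.72%) at an unadjusted p-value under 0.05, with no call by edgeR. DESeq2 called 3 of 56 higher and 1 lower. dusp2, a phosphatase that dampens MAP kinases, had 38.2 and 30.8 CPM after cryoinjury, against 1.22, 0 and 0 CPM in sham (adjusted p = 0.571). Of 25 interferon response genes 0 were higher and 3 lower (12%) at an unadjusted p-value under 0.05, with no call by edgeR. DESeq2 called 1 of 27 higher and 3 lower. tapbpl, which helps load peptides on MHC class I, was at 0 CPM after cryoinjury, against 7.06, 19.7 and 33.7 CPM in sham (adjusted p = 0.382), and isg15, an interferon-induced ubiquitin-like protein, had 0 and 0.350 CPM, against 5.00, 17.2 and 25.4 CPM in sham (adjusted p = 0.721).

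The fitted differences of ribosomal protein genes were small but mostly upward. Of 79 tested, both cryoinjury libraries lay above every sham in 51 (64.6%), against 13.8% of all genes tested. None had an unadjusted p-value under 0.05, and neither edgeR nor DESeq2 called one. Their median log2 fold change was 0.56, and the members lay on both sides of 0, within a range of -0.31 to 1.35. RPL14 had 714 and 538 CPM after cryoinjury, against 363, 142 and 269 CPM in sham (adjusted p = 0.750). The 13 genes of the mitochondrial genome had a median log2 fold change of 0.15, and neither edgeR nor DESeq2 called any of them, with none at an unadjusted p-value under 0.05. They took 5.77% and 12.05% of all counts after cryoinjury, against 3.49%, 4.00% and 10.4% in sham, so the groups overlapped.

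The called genes were then placed in the rest of the series, with CPM scaled over all 21 libraries. Resection at 1 dpi shares the sham libraries, so its values are given only side by side. Of the 18 higher genes, all 18 had more than 3 counts in each cryoinjury library at 1 dpi, 16 to 18 in the 3 resection libraries and 3 to 5 in the 3 shams. At 5 dpi the numbers were 10 and 10 genes after cryoinjury, 10 and 9 after resection and 8 and 4 in sham. At 14 dpi they were 6, 8 and 12 after cryoinjury and 8 to 12 in the 4 shams. The summed level of the 8 called epithelial genes was 4371 and 1908 CPM after cryoinjury at 1 dpi, 2654 to 4431 CPM after resection at 1 dpi and 48.1 to 95.7 CPM in the 1 dpi shams. In the 13 libraries of 5 and 14 dpi it was between 14.5 and 367 CPM. The 5 injured hearts of 1 dpi thus lay above all other libraries in this sum. The genes were picked for being higher in cryoinjury than in sham at 1 dpi, so that part of the order was fixed beforehand. Abundant genes such as krt5 and krt91 weigh most in the sum, so it does not show each gene.

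The 6 called muscle genes had another pattern. Their sum was 9536 CPM in cryoinjury 2 and 89.4 CPM in cryoinjury 3 at 1 dpi, 9.25, 20.7 and 458 CPM after resection and 6.41 to 26.5 CPM in sham at 1 dpi. At 5 dpi cryoinjury replicate 1 had 8451 CPM and cryoinjury replicate 4 had 8.47 CPM. The remaining libraries of 5 and 14 dpi were at 0.648 to 27.7 CPM. The 2 highest muscle sums were thus in single libraries, each with a replicate of its own group far below it. The resection library at 458 CPM likewise stood far above the 9.25 and 20.7 CPM of its group.

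hbegfb was at 807 and 419 CPM after cryoinjury at 1 dpi, 6.09 to 18.6 CPM after resection and 1.91 to 31.0 CPM in sham at 1 dpi. The next highest library of the series was a 5 dpi cryoinjury library, with 82.0 CPM. LGMN had 482 and 529 CPM after cryoinjury at 1 dpi, and between 27.9 and 113 CPM in all other libraries. NNT (2 of 3) had 0.461 and 2.68 CPM after cryoinjury at 1 dpi, against at least 23.3 CPM in every other library. tnks1bp1 had 284 and 336 CPM after cryoinjury at 1 dpi, 56.1 to 151 CPM after resection and 0 in all 3 shams, and yet it was detected at 0.869 to 28.7 CPM in the 6 shams of 5 and 14 dpi. krt91 was found in every library, with 15.3 to 180 CPM in the shams of 5 and 14 dpi.

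**Figure D5:**
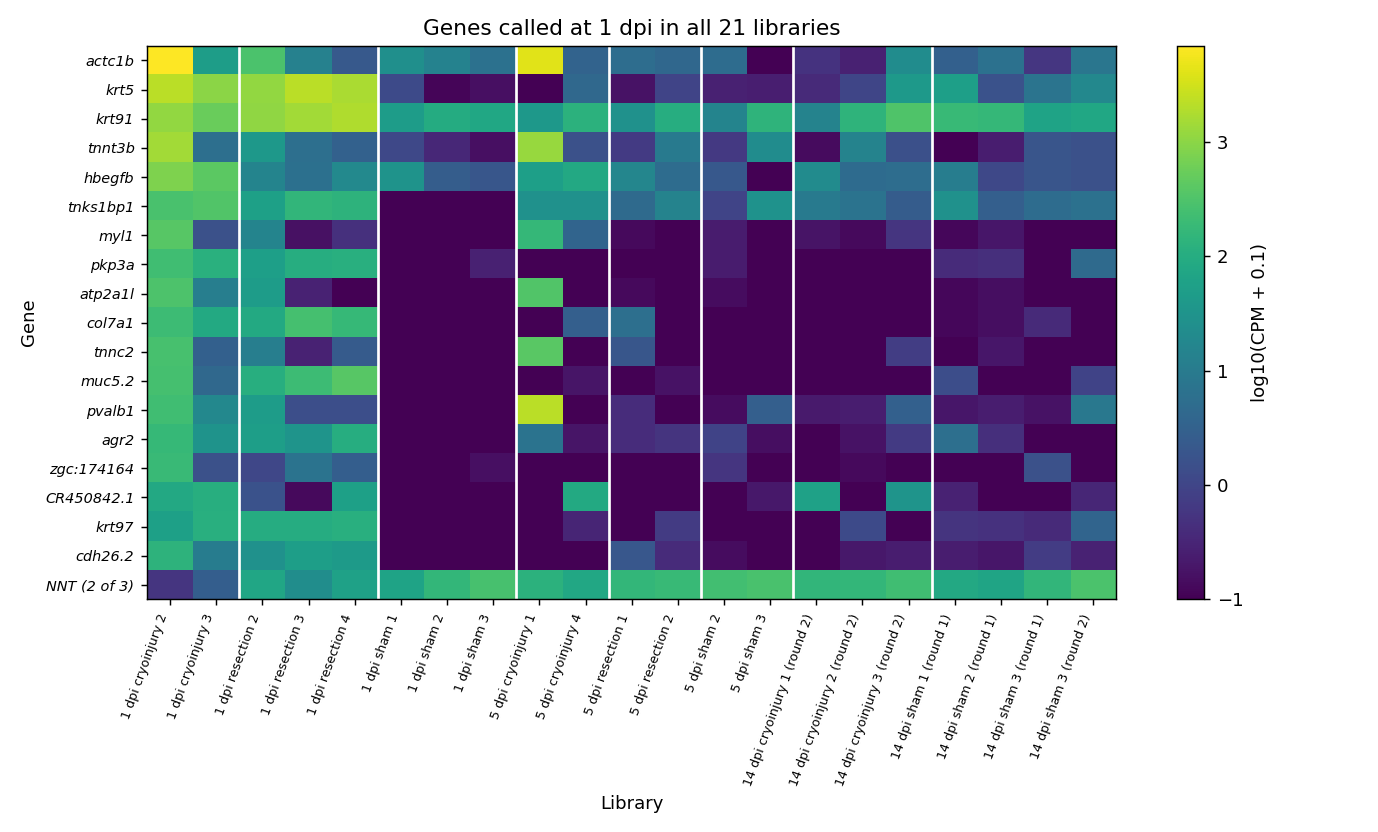
Levels of the 19 genes called at 1 dpi in all 21 libraries of the series, as log10(CPM + 0.1), with white lines between groups and cryoinjury left of sham within each day. The epithelial genes are, by their sum, high in all 5 injured libraries of 1 dpi. The sum of the muscle genes is highest in cryoinjury 2 at 1 dpi and cryoinjury 1 at 5 dpi. NNT (2 of 3) is low in the 2 cryoinjury libraries of 1 dpi and above 23 CPM in the others.

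On their own, cryoinjury and sham gave 0 calls at 5 dpi and 0 at 14 dpi in edgeR. At an unadjusted p-value under 0.05 there were 517 of 14286 genes (3.62%) and 859 of 15020 genes (5.72%). These fits had 2 cryoinjury and 2 sham libraries at 5 dpi, and 3 and 4 at 14 dpi. DESeq2 was not run on these days on their own, so the lack of calls does not show that no gene differed. Whether the effect of cryoinjury at 1 dpi differed from that at a later day was tested as an interaction in edgeR. Against 5 dpi, 1 of 16724 genes differed (0.00598%). This was tnks1bp1, whose 5 dpi levels were 28.0 and 28.2 CPM after cryoinjury and 0.869 and 28.7 CPM in sham (adjusted p = 0.00123). It differed in each of the 8 alternatives. Against 14 dpi, 12 of 17907 genes differed (0.067%). For 8 of them the log2 fold change was higher at 1 dpi than at 14 dpi, and for the other 4 it was lower, that is, further down at 1 dpi. The 8 were tnks1bp1, col7a1, pkp3a, muc5.2, cdh26.2, krt5, atp2a1l and cldnb, of which 7 were also called at 1 dpi itself. The 4 were NNT (2 of 3), GPI, cxcl12a and lmod2a. GPI, a glycolytic enzyme, had 83.6 and 56.6 CPM after cryoinjury at 1 dpi, against 267, 329 and 727 CPM in sham. At 14 dpi all cryoinjury libraries belong to the second of 2 rounds and 3 of the 4 shams to the first, so round and injury overlap there in part. With round as a further term in the fit, an alternative chosen after the data were seen that rests on the single sham of the second round, 5 genes differed. Of the 12 genes, tnks1bp1, pkp3a and muc5.2 still passed (adjusted p = 0.00057, 0.000718 and 0.0426), and the difference for NNT (2 of 3) was -5.97 (SE 1.3999, adjusted p = 0.350). col7a1 and atp2a1l, with almost no counts at 14 dpi, could not be fitted with that term. Without cryoinjury 2 only tnks1bp1 still differed between 1 and 14 dpi. GPI also failed without cryoinjury 3 and krt5 without sham 3, and krt5, muc5.2, cdh26.2, atp2a1l, cldnb, cxcl12a and lmod2a failed without sham 2, so that 1, 109, 42, 10 and 28 genes differed without cryoinjury 2, cryoinjury 3, sham 1, sham 2 and sham 3.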

How the data were processed

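Nuclear RNA counts of 21 libraries were used, 5 of them for the main comparison. RNA was amplified with SMART-seq v4, and no molecular identifiers are described. The authors mapped reads to danRer10 with STAR 2.4.2a, counted them with featureCounts and deposited raw counts per gene. The labels give the strand as reverse, while the kit does not mark strand and the methods state standard counting parameters, so overlapping and antisense genes may share reads. The table holds 2 columns that match no sample, which were left aside, and 1 gene with missing values was left out. The authors' tables of fold changes and p-values were used for gene names only. Names came from their supplementary list (2368 IDs) and a reference table (23937 IDs), in which upper-case symbols are common.

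Groups were compared with edgeR 4.0.16 (R 4.3.3, limma 3.58.1): TMM, filterByExpr and the quasi-likelihood test on the 2 groups, calling genes at a Benjamini-Hochberg adjusted p-value under 0.05. DESeq2 1.42.0, its size factors in edgeR, other filters, wider fits, a replicate block and leaving out each library were alternatives, and round as a further term at 14 dpi was added after the data were seen. With a single cryoinjury library left, that library is assumed to vary like the shams. Bounds use a floor of 3 counts per library.

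Named are all called genes, up to 4 members with the smallest p-values of each list without a call, the 10 genes with the smallest p-values without overlap in each direction, genes that the study names, genes that differed between days, and markers. The comparison and the 22 lists were chosen with earlier results of these data known. On data simulated for this comparison with the dispersion of the data, 50 genes were changed at each size among 13020. Of these 1 at 4-fold, 2 at 8-fold, 8 at 16-fold and 19 at 32-fold were recovered, with 0 false calls. The counts were drawn from the model that edgeR assumes, and the changed genes came from those above the median level. Genes high in a single library were not simulated, so the 0 false calls do not cover calls such as zgc:174164.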

Additional observations from a re-analysis of the deposited data

Results flagged for a closer look

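A difference in the effect of cryoinjury between days, by the interaction test in edgeR, applied to 13 results. Values are differences of log2 fold changes, 1 dpi minus the later day. For tnks1bp1 the difference was 15.01 against 5 dpi and 16.78 against 14 dpi. Against 14 dpi it was 19.22 for col7a1, 20.00 for pkp3a, 21.77 for muc5.2, 15.54 for cdh26.2, 12.45 for krt5, 17.57 for atp2a1l and 19.32 for cldnb. It was -6.97 for NNT (2 of 3), -3.87 for GPI, -7.77 for cxcl12a and -8.58 for lmod2a. Where a group had almost no counts, the size of such a difference depends on the prior count of the fit and is no bound. Round and injury overlap in part at 14 dpi, where 1 of the 4 shams is of the same round as the cryoinjury libraries, and with round as a further term 3 of these 12 genes (tnks1bp1, pkp3a and muc5.2) passed.

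The gap between the highest of the 4 shams at 14 dpi and the next exceeded Dixon's 95% critical value in 9 of the 19 called genes. Chance marks about 1 in 20 groups of normally spread values, a rate that does not hold for low and skewed counts like these, so nothing is read from the number. The highest values were 27.8 CPM for tnks1bp1, 10.98 CPM for hbegfb, 8.66 CPM for pvalb1, 5.85 CPM for agr2, 4.54 CPM for pkp3a, 3.52 CPM for krt97, 1.49 CPM for zgc:174164, 0.637 CPM for cdh26.2 and 0.0996 CPM for tnnc2. For tnnc2 and zgc:174164 the next value was 0, so any count would have been marked, and that of tnnc2 is 2 counts, under the floor of 3.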

How the results depend on the processing

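The counts of calls depended strongly on the settings, while the directions of the named genes hardly did. Many of these were named for small p-values in these same libraries, which favours a stable direction. Medians of some lists changed sign. That of the resolution and growth factor genes went from 0.29 to -0.15 without cryoinjury 2 and -0.22 without cryoinjury 3. The median of all genes tested was -0.42 and -0.97 in these fits. That of the collagens went from -0.76 to 0.44 in the DESeq2 Wald test. For genes higher after cryoinjury (18), DESeq2's size factors gave 15 and all 8 libraries of 1 dpi gave 21. The DESeq2 Wald test gave 565, no filter 65, at least 10 counts in every library 5 and all 21 libraries 91. For genes lower (1), these gave 0 with the size factors (360 at an unadjusted p-value under 0.05), 2 with all 8 libraries, 375 with the Wald test, 26 with no filter and 34 with all 21 libraries. Leaving out 1 library gave 7 to 74 higher genes, the lowest without cryoinjury 2 and the highest without cryoinjury 3, and 0 to 29 lower genes (0 without sham 3, with 284 at an unadjusted p-value under 0.05). Of the 19 calls, 7 were kept without cryoinjury 2, 19 without cryoinjury 3, 17 without sham 1, 14 without sham 2 and 9 without sham 3. The causes were not tested. Replicate numbers 2 and 3 occur in both groups, but each library is a heart of its own, and deviations of same-numbered libraries correlated at -0.00824 and 0.0177. With the replicate number as a block 33 genes were higher and 14 lower.

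For differences from 5 dpi (1), the Wald test gave 333, no filter 25 and leaving out 1 library of 1 dpi 8 to 21. From 14 dpi (12), it gave 1086, no filter 270, leaving out 1 library 1 to 109 and round as a further term, added after the data were seen, 5. Reversals among named genes were tpm1 without cryoinjury 2 (log2 -2.24, others up to 6.56), and MT-ATP6 (-0.21, others up to 1.47) and MT-CO2 (-0.25, others up to 1.65) without cryoinjury 3, none of them called with all 5 libraries. In all, 917 of the named genes' values under alternatives kept their direction and side of the threshold, 106 passed it and 46 lost it. With 2 libraries against 3 and a coefficient of variation of 1.42, changes of up to 32-fold were mostly beyond detection.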
